A study of Homo sapiens with 3 samples.

Results

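Haematopoietic growth factors are secreted or membrane-bound proteins that keep blood-forming cells alive and direct their division and maturation. The set described here held the 8 genes CSF1, CSF2, CSF3, KITLG, FLT3LG, IL34, THPO and EPO, chosen by name for this role, out of 19699 genes named on the array. All 8 genes were matched, through 12 of the 34041 probes used. The RNA came from PANC-1 cells, an established line from a human pancreatic carcinoma, and the sample labels name no genetic change. There were 3 one-colour Agilent arrays, with 1 array each for control cells (no agent), cells given 20 µM cantharidin and cells given 20 µM okadaic acid, with 24 h of treatment. The sample labels give 20 µM for okadaic acid, while the treatment protocol can also be read as giving that dose for cantharidin alone. Cantharidin and okadaic acid (OA) are both inhibitors of protein phosphatase 2A, which takes phosphate off many signalling proteins.

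The factors work through receptors on the target cell. CSF1 and IL34 share the receptor tyrosine kinase CSF1R, while KITLG and FLT3LG activate the related kinases KIT and FLT3. CSF2, CSF3, THPO and EPO bind cytokine receptors that have no kinase of their own and signal through JAK2 and STAT proteins. Many tumour lines release CSF1, CSF2 or CSF3, which act on macrophages and granulocytes, and the messenger RNAs of several of these factors carry AU-rich elements through which they are rapidly degraded.

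Levels are given as processed intensity, the background-subtracted brightness of a probe in scanner units, with the error that the scanner software estimated for that signal on that array (±). Differences and folds were taken after each array had been scaled to its 75th percentile, an intensity of 784, 713 and 936 on the control, cantharidin and OA arrays. A signal counted as measured where the software placed it well above background. The lowest such signals were 35.0, 21.9 and 58.0 on these arrays, so the OA array needed the brightest signal. Where only 1 array of a pair measured a probe, the fold is a bound ("at least"), in which the dim signal was replaced by the lowest measured signal of its array if that was higher. These bounds hold for the background subtraction used here, and another background correction gave smaller differences, for example for KITLG, CSF3 and FLT3LG. A difference of 1.5-fold was the threshold. With 1 array per group there was no replicate check and no test, and neither the software error nor the spread between spots covers variation between cultures. Both treated arrays were compared with the same control array, so the differences from control are not independent of each other.

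The labelled cell type was checked first. Of 6 epithelial markers, 6 were measured in control cells and 5 under each agent, with KRT18, a keratin of simple epithelia, at 70664, 127870 and 193320 on the control, cantharidin and OA arrays. The list did not move as one. Under cantharidin 1 gene was higher and 3 were lower (26.3% and 34% over all genes). Under OA 2 were higher and 3 lower (28% and 27% over all genes). The medians were -0.87 and -0.48 on the log2 scale. EPCAM, an epithelial adhesion molecule, was 3.42-fold and 2.20-fold lower than control. CDH1, the junction protein E-cadherin, was at 167 in control cells and was not well above background under either agent. Of 8 haematopoietic markers, 7, 8 and 8 were measured on the control, cantharidin and OA arrays, and their summed scaled signal (in units of each array's 75th percentile) was 17.1, 13.0 and 19.6. The leukocyte marker PTPRC had 372, 263 and 405 on its brightest probe, while a dimmer PTPRC probe was measured under the agents only. Of the 8 genes, 3 were higher and 2 lower under cantharidin and 1 was higher and 2 lower under OA, beside the same shares over all genes. The monocyte marker CD14 had 2535, 1838 and 11044 and was 3.65-fold higher under OA. The markers SPI1 (log2 differences -0.77 and -1.16) and ITGAM (-0.60 and -0.60) were lower under both agents, ITGAM only just past the threshold. The globin gene HBB, not measured in control cells, was at least 5.82-fold higher under cantharidin (log2 bound 2.54). Under other scalings and background corrections that bound was as small as 1.29. Fibroblast markers were measured for 3, 3 and 2 of 6 genes and endothelial markers for 2 of 4 genes on each array, with summed scaled signals of 0.948, 0.911 and 0.257 and of 2.89, 1.85 and 1.71. The fibroblast sums for control and cantharidin came in large part from different genes. The collagen gene COL1A1 (528, 16.6 and 35.7) was measured in control cells only and PDGFRB (17.5, 375 and 36.8) under cantharidin only. TEK and LUM were below background on every array. The part of these markers in the results below was not tested. In bulk RNA, a change in the share of cells that make a transcript cannot be told apart from a change in the RNA per cell.

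Under cantharidin, CSF2 and KITLG were at least 1.5-fold higher than in control cells and CSF1 and FLT3LG at least 1.5-fold lower, among 6 growth factor genes that could be compared. Over all genes compared, 26.3% were higher and 34% lower by that measure. The median log2 difference of the 6 genes was -0.05, against -0.16 over all genes. It turned to 0.02 when the arrays were scaled on probes measured everywhere, so the set had no settled direction. Under OA, 7 genes could be compared, and CSF2, CSF3 and KITLG were higher and CSF1 lower. The background was 28% of genes higher and 27% lower, and the median log2 difference was 0.31, against 0.00 over all genes. With so few members, these counts can be read only beside the background, and the shares of members past 1.5-fold lay on either side of it. Single differences were large, above all for CSF2 under OA and KITLG under cantharidin. CSF2, CSF3 and KITLG are among the genes that the study itself picked as higher from these arrays, so their direction here is not independent evidence. The study lists CSF3 as higher under cantharidin too, where no fold could be given here. It also measured CSF2, CSF3 and KITLG by real-time PCR and the CSF2 protein on an antibody array.

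**Figure D1:**
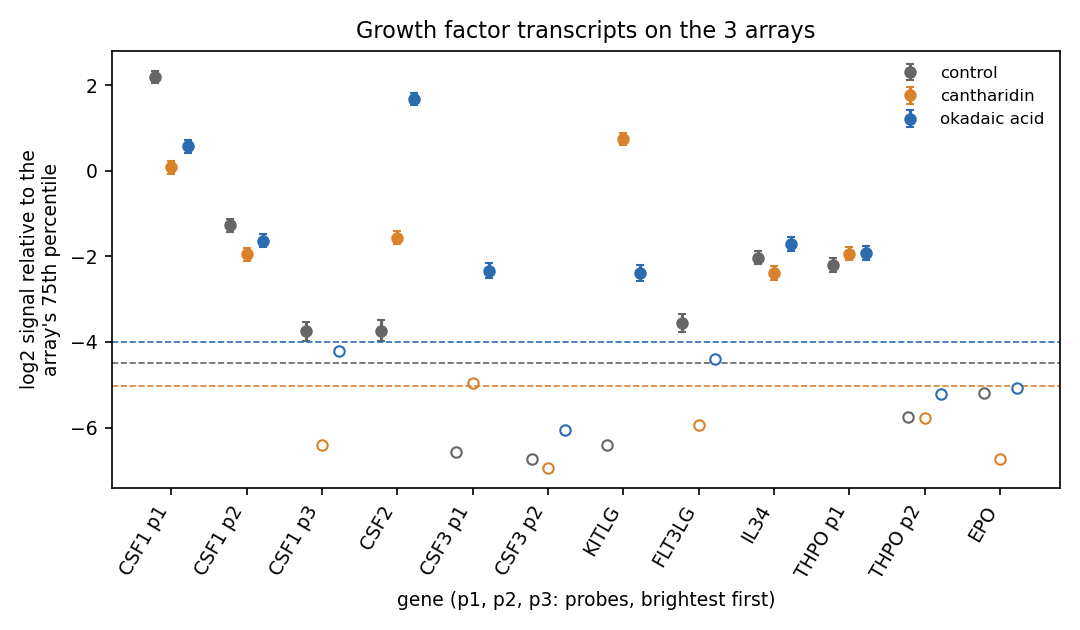
Each point is 1 probe on 1 array, as log2 signal relative to that array's 75th percentile (y axis), for the 12 growth factor probes (x axis); bars are the software error, open points were not well above background, and each dashed line is the lowest measured signal of the array of that colour. CSF2 was highest under OA, KITLG under cantharidin and CSF1 in control cells, while EPO was open on all 3 arrays.

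CSF2 encodes granulocyte-macrophage colony-stimulating factor, which drives the growth of granulocytes and macrophages from their precursors. Its single probe had an intensity of 58.8 ± 9.74 in control cells, 240 ± 24.7 under cantharidin and 2981 ± 298 under OA. The control signal was only 1.68 times the lowest measured signal of its array, while the treated signals were 11 and 51.3 times that of theirs. CSF2 was 4.50-fold higher with cantharidin (log2 difference 2.17 ± 0.28) and 42.5-fold higher with OA (5.41 ± 0.28). The difference between the agents was 9.44-fold (3.24 ± 0.21), with OA the higher. Among all genes compared, 23 of 16166 were further above control under OA and 1038 of 16644 under cantharidin. The size depended on the background correction. With the normexp background correction the log2 differences were 1.19 and 4.04, and in the authors' normalized table they were 2.71 and 6.06.

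The sequences directly upstream of the start sites are printed for CSF2 and KITLG, the members furthest above control, to show what the stretch next to each start holds. They are the 250 bases before the annotated RefSeq start in GRCh38.p14, read 5′ to 3′ on the gene's strand, with chr5:132073539-132073788 (plus strand) for CSF2 and chr12:88580472-88580721 (minus strand) for KITLG. Capitals mark matches, on either strand, to TGANTCA (the AP-1 motif), a 10-letter form of the NF-κB motif (GGGA, any 4 letters, CC) or GAGATTCC (the core of the CK-1 element, known from cytokine promoters).
CSF2: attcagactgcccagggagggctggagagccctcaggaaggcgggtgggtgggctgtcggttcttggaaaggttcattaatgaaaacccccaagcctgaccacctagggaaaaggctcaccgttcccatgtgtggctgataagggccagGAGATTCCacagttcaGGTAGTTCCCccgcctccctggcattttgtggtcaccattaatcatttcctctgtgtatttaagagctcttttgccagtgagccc
KITLG: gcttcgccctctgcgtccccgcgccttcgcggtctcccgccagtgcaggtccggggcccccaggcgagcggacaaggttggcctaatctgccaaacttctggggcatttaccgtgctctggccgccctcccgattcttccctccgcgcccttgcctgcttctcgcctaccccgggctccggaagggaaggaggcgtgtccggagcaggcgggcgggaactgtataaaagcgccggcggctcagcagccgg

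In the CSF2 window, GAGATTCC lay 101 to 94 bases before the start on the gene's strand and the NF-κB motif 85 to 76 bases before it on the other strand, and these matches did not overlap. GAGATTCC occurred in 0.735% and the NF-κB motif in 22.6% of 35116 windows of this length before annotated starts. Windows were matched for 5 of the 8 members. The NF-κB motif was also found in each of the 3 THPO windows, of which 2 covered nearly the same stretch and held the same match. It was found in the EPO window too, and was not found in the 2 FLT3LG windows. THPO, however, stayed within 1.5-fold of control, and EPO was measured on no array. The CSF2 window also held 3 matches to GGAAA, the core of the NFAT motif, which 55.6% of windows held and which are not in capitals. TGANTCA (6.57% of windows) was not found in it. The KITLG window held no match to any of these 4 motifs or to ACGTG, the core of the hypoxia response element (18.5% of windows). The letters of the motifs were chosen with the CSF2 window known. A match is a description of the letters and shows no binding, and the absence of a match concerns these windows only.

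KITLG encodes stem cell factor, the ligand of KIT, which supports blood stem cells, mast cells, germ cells and melanocytes. Its single probe was at 9.20 ± 9.16 in control cells, not well above background, at 1190 ± 119 under cantharidin and at 180 ± 23.2 under OA. The treated signals were 54.4 and 3.09 times the lowest measured signal of their arrays. KITLG was thus at least 37.4-fold higher than control under cantharidin (log2 bound 5.23) and at least 4.30-fold higher under OA (bound 2.10). A larger difference or bound above control was found for 37 of 16644 genes under cantharidin, against 943 of 16166 under OA. Between the agents, both measured, KITLG was 8.71-fold lower under OA (log2 difference -3.12 ± 0.24). The order of the treated arrays was the reverse of that for CSF2, and 111 of 16200 genes had a larger difference in this direction, while 100 exceeded the CSF2 difference in the other.

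CSF3 encodes granulocyte colony-stimulating factor, the main driver of neutrophil production. Its brighter probe was at 8.29 ± 8.28 in control cells and 22.9 ± 6.10 under cantharidin, neither well above background, and at 185 ± 22.7 under OA. It was therefore measured under OA alone, at 3.19 times the lowest measured signal there, and was at least 4.44-fold higher than control (log2 bound 2.15). The cantharidin signal was just above the lowest measured signal of its array, 21.9, so it was used as it stood. The difference from cantharidin, 6.17-fold (log2 2.62), thus rests on an unsure dim signal and is not a firm minimum. With the normexp correction the difference between the agents was 1.09 on the log2 scale. No fold between cantharidin and control can be given. The second CSF3 probe, assigned to the same transcript, was measured on no array (7.35, 5.80 and 14.2), so the difference rests on 1 probe.

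CSF1, macrophage colony-stimulating factor, supports the survival and growth of monocytes and macrophages. Its brightest probe had 3585 ± 359 in control cells, 751 ± 75.4 under cantharidin and 1387 ± 139 under OA, all far above background. This made it 4.33-fold lower with cantharidin (log2 difference -2.12 ± 0.20) and 3.08-fold lower with OA (-1.62 ± 0.20), with 1141 of 16644 and 1394 of 16166 genes further down. The treated arrays differed by 1.41-fold (0.49 ± 0.20), under the threshold. The array held 3 CSF1 probes assigned to different RefSeq transcripts of the gene, and these did not differ by the same amount. The second probe had 324, 184 and 301 and was 1.60-fold lower with cantharidin (-0.68 ± 0.21) and 1.28-fold lower with OA (-0.36 ± 0.21). The third was measured in control cells only, at 58.3 ± 9.12, and gave bounds of at least 2.42-fold and at least 1.20-fold lower. All 3 probes were lower under both agents, but only the brightest passed 1.5-fold under OA, and the median over the probes was -1.27 for cantharidin and -0.36 for OA. Whether the transcripts or the probes differed was not tested.

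IL34, the other ligand of CSF1R, is known for the upkeep of microglia and of Langerhans cells in the skin. It was printed in 10 spots on each array, of which 10, 9 and 9 had no outlier flag. The spots ranged from 140 through a median of 207 to 240 in control cells, from 111 through 142 to 148 under cantharidin and from 258 through 276 to 354 under OA. After scaling, the spots of the treated arrays did not overlap, while control spots overlapped with those of both. The mean over spots was 1.28-fold lower than control under cantharidin (log2 difference -0.36 ± 0.22) and 1.24-fold higher under OA (0.31 ± 0.22), both under 1.5-fold. OA exceeded cantharidin by 1.60-fold (0.67 ± 0.22), and 26.2% of all genes compared were higher under OA by at least as much. This difference was under 1.5-fold with the normexp correction (0.42), with median scaling (0.52) and with quantile normalization (0.54). The SD of log2 signal over the spots was 0.26, 0.13 and 0.14 on the control, cantharidin and OA arrays, and it describes spots of 1 array, not cultures.

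**Figure D2:**
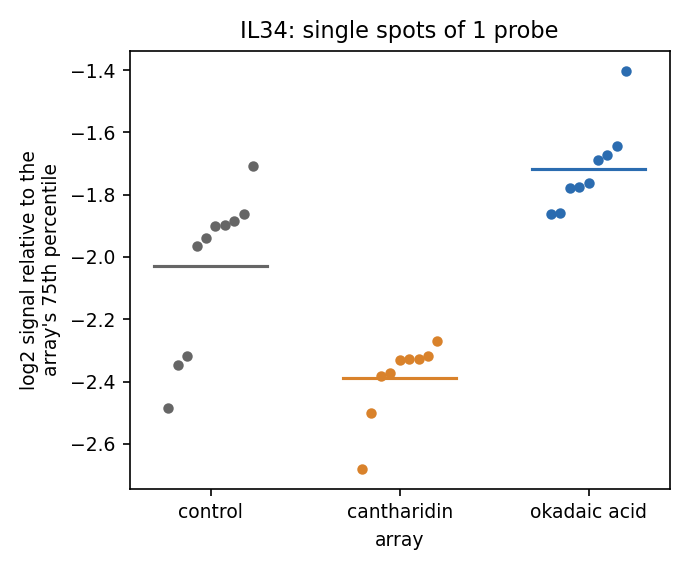
Each point is 1 spot of the IL34 probe (10 in control, 9 under cantharidin, 9 under OA), as log2 signal relative to the array's 75th percentile, and lines are the means over spots; spots are placed side by side in order of signal. The cantharidin spots all lie below the OA spots, with control spots spread across both.

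FLT3LG encodes the ligand of FLT3, which supports early progenitors and dendritic cells. It was measured in control cells only, at 66.5 ± 9.98, against 11.6 ± 5.70 under cantharidin and 44.4 ± 13.4 under OA. This gave a bound of at least 2.76-fold lower under cantharidin (log2 -1.47) and of at least 1.37-fold lower under OA (log2 -0.45). The control signal was 1.90 times the lowest measured signal of its array, so both bounds started from a dim value. The bound under OA does not reach 1.5-fold, and with the dim signal of 44.4 below the 58.0 needed on that array, a larger difference could not have been measured.

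THPO encodes thrombopoietin, the regulator of platelet production, which is made mainly in the liver. One probe was measured on every array, at 171 ± 19.2, 185 ± 19.5 and 247 ± 28.7 in control, cantharidin and OA cells. It differed from control by 1.19-fold under cantharidin (log2 difference 0.25 ± 0.22) and 1.21-fold under OA (0.27 ± 0.23). Between the agents the difference was 0.02 ± 0.23, and its sign changed with the scaling, from -0.13 with median scaling to 0.42 with none. The second THPO probe, for the same transcript, was measured on no array (14.6, 13.0 and 25.4), although 1 of its 9 usable cantharidin spots was well above background. EPO encodes erythropoietin, the oxygen-controlled regulator of red cell production in kidney and liver. It was measured on no array (21.4 ± 8.45, 6.69 ± 6.65 and 27.8 ± 14.4), and no fold is given.

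**Figure D3:**
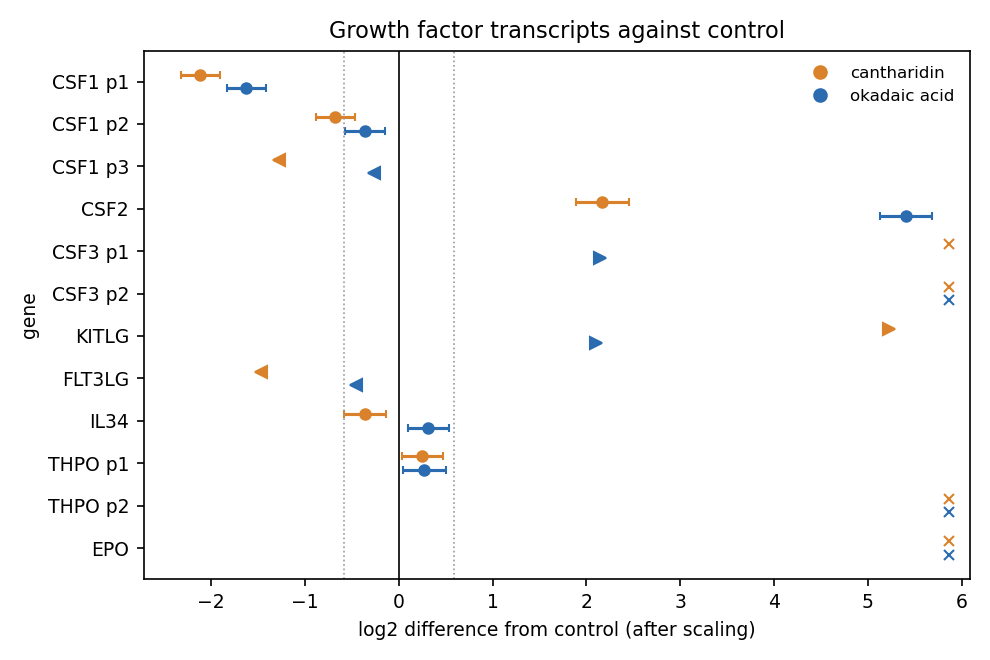
Log2 difference from control after scaling (x axis) for the 12 growth factor probes (y axis), for cantharidin and okadaic acid (OA); bars are the propagated software error, triangles are bounds that point to larger differences, crosses at the right edge mark probes below background on both arrays of the pair, and dotted lines mark 1.5-fold. CSF2 reached 5.41 under OA and the KITLG bound 5.23 under cantharidin, while CSF1 lay to the left on all 3 probes.

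Set directly against cantharidin, OA gave at least 1.5-fold higher signals for CSF2, CSF3 and IL34 and a lower one for KITLG, among 6 members compared. Over all genes in this comparison 29.4% were higher and 20.5% lower. The median of the 6 members was 0.58 on the log2 scale and that of all genes 0.10. CSF1 and THPO stayed within 1.5-fold.

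The genes most like CSF1 and CSF2 were looked for among the 14222 genes measured on all 3 arrays, by the distance between their pairs of log2 differences from control. Nearest to CSF1 were PSMG4, a chaperone of proteasome assembly, at 0.026, DNAJC16, a member of the DNAJ family, at 0.044, and TRAP1, a mitochondrial chaperone, at 0.063. The CSF1 pattern was common, with 88 genes within 0.25 of it. No gene lay within 0.25 of CSF2. The nearest to it were DEPP1 at 0.32, with log2 differences of 2.25 and 5.71, ID2, an inhibitor of DNA-binding helix-loop-helix proteins, at 0.52 (2.57 and 5.74), and EID3 at 0.57 (1.67 and 5.15). These likenesses rest on 3 arrays with a shared control. Because KITLG, CSF3 and FLT3LG were not measured on all 3 arrays, they were not searched, and neither were IL34 and THPO, which stayed within 1.5-fold of control.

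The receptors of these factors were examined on the same arrays. Of 9 receptor genes, 6 were measured in control cells, 7 under cantharidin and 5 under OA. Under cantharidin 1 was higher and 2 were lower among 7 compared, and under OA 2 were higher and 1 lower among 6. Over all genes the shares were 26.3% higher and 34% lower under cantharidin and 28% and 27% under OA. The medians were -0.06 and -0.14 on the log2 scale, and each changed sign, to 0.01 and 0.02, under 1 of the 6 other scalings and background corrections.

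CSF1R, the receptor of CSF1 and IL34, had 66.5 ± 10.4, 166 ± 17.7 and 190 ± 23.2 in control, cantharidin and OA cells. It was 2.76-fold higher with cantharidin (log2 difference 1.46 ± 0.27) and 2.40-fold higher with OA (1.26 ± 0.29), while its ligand CSF1 was lower under both on the brightest probe. The CSF1R control signal was only 1.90 times the lowest measured signal of its array. Other scalings and background corrections gave log2 differences as small as 0.78 and 0.62. SDC1, a heparan sulphate proteoglycan reported to bind IL34, had 4607, 764 and 2393 and was 5.48-fold and 2.30-fold lower. PTPRZ1, a receptor phosphatase that also binds IL34, was close to the background limit at 50.7 and 32.5 on the control and cantharidin arrays and was not measured under OA.

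KIT and FLT3, the receptors of KITLG and FLT3LG, were at or near background. None of the 3 KIT probes was measured on any array, with the brightest at 22.7, 13.3 and 47.2. FLT3 was measured under cantharidin only, at 41.2 ± 7.52, or at least 1.30-fold higher than control. At this sensitivity KITLG was therefore measured under both agents, while KIT was measured on no array.

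Among the cytokine receptors, CSF2RA, the binding subunit for CSF2, was measured on no array (24.7, 20.4 and 36.4). CSF2RB, the signalling subunit shared with the IL-3 and IL-5 receptors, had 128, 112 and 131 and stayed within 1.5-fold of control under both agents, although a dimmer probe was 1.72-fold lower under cantharidin. CSF3R had 381, 387 and 720 and was 1.58-fold higher under OA (log2 difference 0.66 ± 0.21), which fell to 0.54 with median scaling. EPOR, the erythropoietin receptor, had 1678, 672 and 1563 and was 2.27-fold lower under cantharidin (-1.18 ± 0.20), against a difference of -0.36 ± 0.20 under OA.

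**Figure D4:**
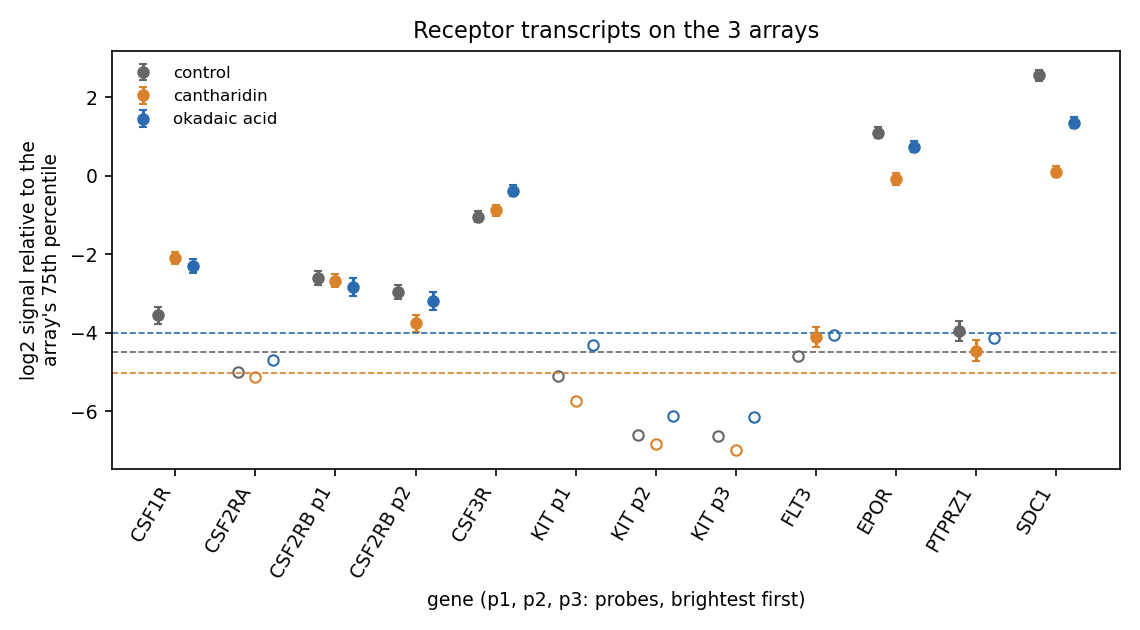
Log2 signal relative to the array's 75th percentile (y axis) for the probes of the 9 receptor genes (x axis), with software error bars, open points for signals not well above background and dashed lines for the lowest measured signal of each array. CSF1R was lowest in control cells, EPOR and SDC1 were lowest under cantharidin, and the points of CSF2RA and KIT are open throughout.

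All 17 genes of the signalling list, which act downstream of these receptors, were measured on every array. Under cantharidin 3 were higher and 5 lower (26.3% and 34% over all genes), and under OA 7 were higher and 5 lower (28% and 27%), with medians of 0.07 and -0.25 that turned to -0.06 and 0.01 without scaling. SOCS1, a feedback inhibitor of JAK kinases, was 2.95-fold higher with cantharidin and 9.36-fold higher with OA. STAT5B, a transcription factor activated by most of these receptors, went the other way and was 3.02-fold and 8.52-fold lower. The phosphatase gene PTPN6 (SHP-1) was 6.45-fold and 1.88-fold lower. PIM1, a kinase gene that STAT5 is known to induce, was 6.10-fold lower under cantharidin and differed by 1.21-fold under OA, which placed it 7.37-fold higher under OA than under cantharidin.

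Of 8 other cytokines that act on blood cells, IL3, IL7, IL9 and TSLP were measured on no array. IL11, a cytokine that supports platelet production, had 177 ± 19.0, 2262 ± 226 and 2639 ± 264 and was 14.1-fold higher with cantharidin (log2 difference 3.82 ± 0.21) and 12.5-fold higher with OA (3.65 ± 0.21). IL15, which sustains natural killer cells, had 224, 347 and 553 and was 1.70-fold and 2.07-fold higher. The remaining compared genes, IL5 and CXCL12, stayed within 1.5-fold on their brightest probes. A second CXCL12 probe (136, 67.4 and 104) was 1.84-fold lower with cantharidin and 1.56-fold lower with OA.

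Proteins that bind AU-rich messenger RNAs help set how long transcripts such as CSF2 and CSF3 last. They were listed here with other regulators of messenger RNA. All 11 genes of this list were measured on every array, with 2 higher and 4 lower under cantharidin (26.3% and 34% over all genes) and 5 higher and 2 lower under OA (28% and 27%), and medians of -0.24 and 0.37. ZFP36L2, which promotes decay, had 154, 927 and 3890 and was 6.61-fold and 21.1-fold higher. ZC3H12A, an RNase that limits cytokine transcripts, had 1950, 10661 and 24874 and was 6.02-fold and 10.7-fold higher. ELAVL1 (HuR), which stabilises AU-rich transcripts, was 3.17-fold and 1.84-fold lower, and TIA1, a repressor of their translation, was 3.50-fold and 2.75-fold lower on its brighter probe. A second TIA1 probe was 4.85-fold lower with cantharidin and 1.36-fold lower with OA. ZFP36L1 and HNRNPD (AUF1) were past 1.5-fold in opposite directions, with log2 differences of -1.56 and 1.40 and of -0.62 and 0.70 for cantharidin and OA.

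The last of the regulator lists held transcription factors known to act on colony-stimulating factor genes. Of 15 genes, all measured, 8 were higher and 0 lower under cantharidin (26.3% and 34% over all genes) and 9 higher and 1 lower under OA (28% and 27%), with medians of 1.14 and 0.92. This list was chosen with earlier results of these data known, so its counts are a description and no evidence of enrichment. The NF-κB subunit genes NFKB1, RELA, RELB and REL were all among those higher under both agents, and NFKB1, RELA and REL were named after their values were seen. RELB had 2762, 21334 and 10599 and was 8.50-fold and 3.21-fold higher. FOS, a partner in AP-1, had 3434, 8879 and 72510 and was 2.85-fold and 17.7-fold higher. NFATC1 and RUNX1 depended on the probe. NFATC1 was 10.7-fold and 1.40-fold higher on its brightest probe and 3.53-fold and 8.22-fold higher on the other. RUNX1 was 9.53-fold and 1.98-fold higher on its brightest probe. The 4 dimmer RUNX1 probes had log2 differences of 3.19, 1.36, -0.71 and 0.66 under cantharidin and of 3.04, -0.16, 0.13 and 0.46 under OA, so 1 of them was past 1.5-fold lower under cantharidin.

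**Figure D5:**
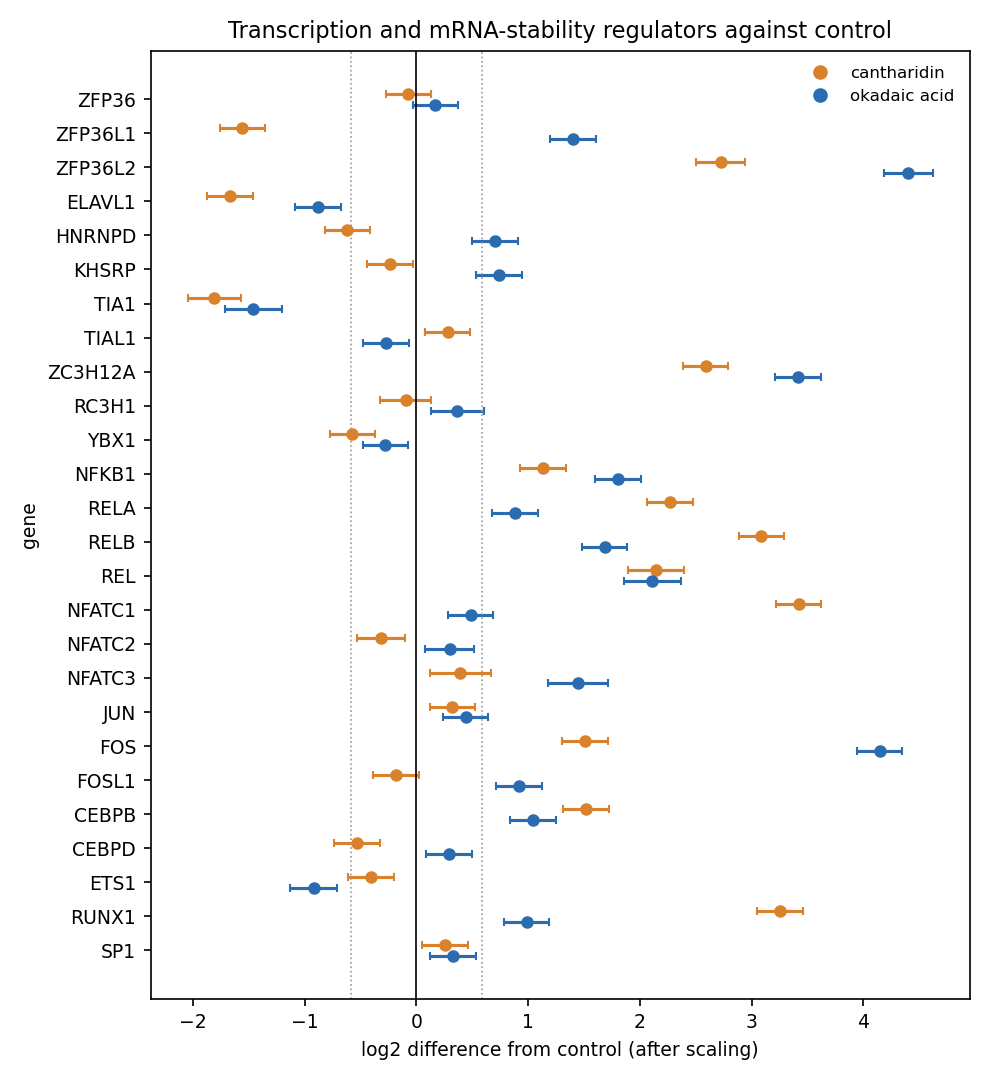
Log2 difference from control after scaling (x axis) for the 11 messenger RNA regulators (top) and the 15 transcription regulators (below), each by its brightest probe; bars are the propagated software error and dotted lines mark 1.5-fold. ZFP36L2, ZC3H12A, RELB and FOS lie to the right under both agents, and ZFP36L1 lies on opposite sides.

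Of 10 oxygen-sensing genes that control EPO, 9 could be compared, with 2 higher and 1 lower under cantharidin (26.3% and 34% over all genes) and 3 higher and 2 lower under OA (28% and 27%). VHL, which marks hypoxia-inducible factors for destruction, was 7.91-fold and 6.12-fold higher. The oxygen-sensing hydroxylase gene EGLN1 was 2.57-fold and 1.42-fold higher, and EGLN3 was 3.36-fold higher under OA and level with control under cantharidin (log2 difference 0.01 ± 0.25). GATA2, a factor reported to repress EPO, was 5.74-fold higher under OA (42.4, 48.0 and 291) and differed by 1.25-fold under cantharidin. Its control signal was close to the lowest measured on that array, 35.0. Other scalings and background corrections gave log2 differences as small as 1.19 under OA, against 2.52 here. HNF4A, which supports EPO expression in liver, was measured on no array.

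Membrane-bound CSF1, KITLG and FLT3LG are released from the cell by proteases. ADAM17, the best known of these for CSF1 and KITLG, had 212, 635 and 397 and was 3.29-fold higher with cantharidin and 1.57-fold higher with OA, the latter under 1.5-fold in 3 of 6 other scalings and corrections. MMP9, which releases soluble KITLG in bone marrow, had 132, 260 and 844 and was 2.17-fold and 5.35-fold higher. ADAM10 was 2.09-fold higher under OA on its brightest probe, while its second probe was 2.17-fold lower under cantharidin and within 1.5-fold under OA. FURIN, which activates such proteases, was 2.74-fold lower with cantharidin. Under OA FURIN was below the measured range, at least 5.61-fold lower than control (log2 bound -2.49). Under other scalings and background corrections that bound was as small as -1.56.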

How the data were processed

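Members and gene lists were chosen with earlier results of these data known. The authors deposited Feature Extraction 11.0.1.1 output per array, with intensity values that, per the file headers, were background-subtracted and spatially detrended, with no scaling between arrays (probe annotation hg19). A further table deposited by the authors holds normalized log2 values, whose normalization is not given in the sources used here. Each of its columns correlated best with its own array (r at least 0.998 over 30845 probes). All arrays shared 1 slide and 1 scan, so position went with the group.

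For each probe, the log2 intensities of its spots were averaged after spots with outlier flags had been dropped (34041 of 34127 probes kept), and each array's 75th percentile was subtracted. RefSeq accessions, without version, named 25705 probes (GRCh38.p14, names only). Each gene was read from its brightest probe (highest mean over the arrays). All members and the receptors analysed are named, and 1 item is not reported here. From the other lists, up to 4 genes with the largest differences past 1.5-fold measured on both arrays are named, with any that passed it in opposite directions, and the 3 nearest patterns for members measured on all arrays and past 1.5-fold under either agent. NFKB1, RELA, REL, SPI1, ITGAM and genes named for not being measured were added after their values were seen. Promoter windows came from RefSeq. LYZ had no matched probe. The calling step was tested on simulated data, made as copies of the control array with added noise and planted differences. That test covered neither the bounds nor variation between cultures. Alternatives were other background corrections, scalings, filters, thresholds, probe summaries and the deposited table. Software was Python 3.11.15 (numpy 2.4.6, pandas 2.3.3, matplotlib 3.10.9) and, for the normexp correction, limma 3.58.1 in R 4.3.3. The number of arrays limits the precision.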

Additional observations from a re-analysis of the deposited data

Results flagged for a closer look

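Of the listed genes, 3 were past 1.5-fold in one direction with cantharidin and in the other with OA, with 1 array each, and none of these differences was tested. ZFP36L1, whose protein promotes the decay of AU-rich messenger RNA, had log2 differences from control of -1.56 under cantharidin and 1.40 under OA, and its second probe gave -2.45 and 0.64. HNRNPD (AUF1) had -0.62 and 0.70, but its second probe was at -2.58 and 0.38, and other scalings gave values as small as -0.55 and 0.58, short of 1.5-fold. COL3A1, a fibroblast collagen among the cell type markers, had 1.43 and -0.66, from signals of 79.8, 195 and 60.2, against lowest measured signals of 35.0, 21.9 and 58.0 on the control, cantharidin and OA arrays, and the normexp background correction gave 0.88 and -0.29. The directions of these 3 genes held in each scaling and background correction tried.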

How the results depend on the processing

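Without replicates no array could be left out, and no paired analysis was possible because each group had 1 array. Of 60 member counts under the alternatives, 52 stayed within 1.5 times the reported count. Requiring signal well above background on all 3 arrays left 1 member higher (CSF2) and 1 lower (CSF1) under cantharidin, 1 higher (CSF2) under OA and 0 lower in OA against cantharidin, since this filter removes KITLG, CSF3 and FLT3LG. Under OA 2 members (CSF1 and FLT3LG) were lower with no filter on dim probes and also with the deposited values, and 0 with the median over each gene's probes. With no filter, 5 members (CSF2, CSF3, EPO, FLT3LG and IL34) were higher in OA against cantharidin. For receptors, 56 of 60 counts stayed within that range. Of 164 member differences, 127 moved by no more than the software error, 37 by more, and 0 called differences changed sign. Many of the 127 could not move, so this share does not measure robustness. The filters on dim probes leave differences between measured signals as they are, and the median over probes does so for genes with 1 usable probe. The ranges were 4.03 to 7.15 (log2) for KITLG under cantharidin, 1.44 to 4.03 for KITLG and 1.43 to 4.23 for CSF3 under OA, and -2.38 to -0.64 for FLT3LG under cantharidin. Leaving out the scaling moved the median of all genes from -0.16 to -0.30 under cantharidin, from 0.00 to 0.24 under OA and from 0.10 to 0.49 between the agents. The normexp correction used the median spot signal, as the mean was not used here. The dim control signals of CSF2, KITLG, CSF3 and FLT3LG limit their folds, and spots near background have no settled order.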
